A study of Mus musculus with 6 samples.

Results

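The codons of alanine, isoleucine, proline, threonine and valine were followed in ribosome footprints of mouse brain. They were chosen by amino acid from the genetic code and not by their counts, and they make up 19 of the 64 codons in each table, or 19 of the 61 sense codons. Each is written here with the third base in capitals, because that base is the one that separates the codons of 1 amino acid. They are Ala (gcU), Ala (gcC), Ala (gcA), Ala (gcG), Ile (auU), Ile (auC), Ile (auA), Pro (ccU), Pro (ccC), Pro (ccA), Pro (ccG), Thr (acU), Thr (acC), Thr (acA), Thr (acG), Val (guU), Val (guC), Val (guA) and Val (guG). Among them 5 end in U, 5 in C, 5 in A and 4 in G, and 9 hold no G at all.

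In mammals the tRNAs that read these codons carry an unusual base. The adenosine at the first, or wobble, position of the anticodon is deaminated to inosine by the ADAT2/ADAT3 enzyme, and inosine pairs with U, C or A in the third position of a codon. A single tRNA can therefore serve the U-, C- and A-ending codons of a box, whereas G-ending codons are left to tRNAs with C or U in the wobble position. The gene symbols of the mouse (RefSeq, assembly GRCm38.p6) show this arrangement: for the 5 amino acids they list 52 tRNA genes with A in the wobble position, 0 with G, 28 with U and 28 with C. Ile has 15 AAU genes, Ala 13 AGC genes, Thr 9 AGU genes, Val 9 AAC genes and Pro 6 AGG genes. Phe differs, since its tRNA starts with G, and the list holds 7 such GAA genes.

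The study asked what happens to translation in the brain when 1 of several tRNA genes for Phe is lost. Footprints, the mRNA fragments that a ribosome shields from a nuclease, were sequenced from brain homogenates of 10-week-old mice on a C57BL/6N background. The tRNA-Phe-1-1-/- mice (labelled Phe11 -/-, KO) were homozygous for the loss of tRNA-Phe-1-1, made with CRISPR in the germline, so every cell type lacked this gene, and the WT mice (+/+) were matched for age and litter. None of the 19 codons is read by the deleted tRNA. Each genotype had 3 mice, whose reads the authors had summed into 1 table of counts per codon and position. The tables hold codons and no genes, so the labelled tissue could not be checked against marker genes.

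The summed tables held 1366689 reads in WT and 2045356 in KO. With 1 table per genotype there is no replicate error, no test was possible, and the 95% intervals given here cover counting error only. No molecular identifiers are described, so reads need not be independent molecules. A position is the 5′ end of the read minus the first base of the codon, so a codon at position -14 begins 14 bases after the start of the read. At position 1 the first base of the codon lies just before the read. A share is the percentage of all codons counted at a position, and a log2 ratio compares the KO share with the WT share averaged over positions -30 to 2 unless another range is named. A read is counted at up to 11 of these positions, and intervals over several positions were widened for that. The 19 codons took 5228068 of 14896786 counts in WT (35.1%) and 7712779 of 22309840 in KO (34.6%). No member was at 0 at any of the 627 codon positions, against a 3-count floor of 0.000824% in WT and 0.000559% in KO.

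Where the reads begin sets how these codons can be seen. Bases of a read are numbered here by their distance from its 5′ end. The counts hold no read lengths, so a base numbered in this way may lie past the end of a read. G preceded the read in 86.3% of the counts in WT and 86.5% in KO, whereas it made up only 1.19% and 1.47% of the first 17 bases of the read. For reads that begin on the first base of a codon, the preceding base lies outside the positions used. Those reads are not in the 86.3% and 86.5%. From base 19 to base 30, counted from the 5′ end, G made up 20.3% in WT and 20.5% in KO. A read thus tends to start behind a G and to run through a stretch without G, which for these codons means that Ala and Val codons, which start with G, sit at the boundary, and Ile, Pro and Thr codons fill the stretch. The nuclease is not given in the sources used here, and its part in this pattern was not tested.

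Such stretches exist in the mouse coding sequences (GRCm39, GENCODE), where 79608 runs of at least 17 bases without G directly follow a G. In 32740 of them that G is the first base of a codon. One that is headed by an Ala codon is shown to make the geometry visible. It begins with the G in lower case, the 17 capitals are the bases that follow, and reading in codons from the first letter gives Ala (GCC) followed by 5 codons for Ile, Pro or Thr.
Ala (GCC) in Antxr1: gCCCCCACUCCUCCCAUUccuuccccacca
It is in exon 18 of Antxr1 (ENSMUSG00000033420.14), a cell-surface receptor for anthrax toxin, at chr6:87114161-87114190 on the minus strand, and it lies in a run of 52 bases without G. Among the runs headed by this codon it was picked for the most Ile, Pro and Thr codons and then for length. Reads on single mRNAs were not analysed here.

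Pro codons were less frequent in KO footprints than in WT footprints at every position. Their mean share was 11.9% in WT and 11.1% in KO, a log2 ratio of -0.098 (95% interval -0.107 to -0.088). The share was lower in KO at 33 of 33 positions, and at 30 of them the 95% Wilson intervals of the tables lay apart. At position -14, for example, Pro took 17.1% of WT codons (16.98 to 17.18) and 15.8% of KO codons (15.71 to 15.87). Over the positions -14 to 0, which lie wholly in the first 17 bases of the read, the Pro share ran from 12.2% to 17.6% in WT and from 11.3% to 16.4% in KO. Over positions -30 to -18, beyond those bases, it ran from 7.55% to 11.1% in WT and from 7.27% to 10.1% in KO. These ranges overlap between genotypes, but the share at a given position did not change order. Reads that begin on the first, the second or the third base of a codon are separate sets of reads, and in each set the Pro log2 ratio was negative, at -0.098, -0.085 and -0.11. These sets come from the same mice and the same summed tables, so their agreement does not stand for replication.

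The lower share was not spread evenly over the 4 Pro codons. Pro (CCC) went from a mean share of 3.56% in WT to 3.24% in KO (log2 -0.14, -0.154 to -0.119), which was the lowest ratio of the 61 sense codons. Pro (CCU) went from 4.13% to 3.89% (log2 -0.084) and Pro (CCA) from 3.84% to 3.63% (log2 -0.083). Pro (CCG), the codon that inosine does not read, went from 0.338% to 0.329%, and the interval of its log2 ratio included 0 (-0.094 to 0.016). That interval also held the ratios of CCU and CCA, so CCG was not set apart from these codons. The CCC share was lower with intervals apart at 29 of 33 positions, CCA at 24, CCU at 23 and CCG at 10. Over the 2013 sense codon positions 24.9% were lower in KO in this way. Pro codons together were lower at 86 of 132 positions (65.2%) and higher at 18 (13.6%), where 40.9% of all sense codon positions were higher. After Ala (GCC) at position 1, the widest gap of any member with KO below WT was CCC at position -3, from 5.88% to 4.95%.

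Position 2, where only the third base of the codon is in the read, stood apart for Pro (CCA). It held 0.373% in WT and 0.133% in KO, a log2 ratio of -1.48.

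Ile codons went the other way in the U- and A-ending members. The mean share of Ile was 7.10% in WT and 7.30% in KO (log2 0.042, 0.030 to 0.053). Ile (AUA) went from 0.683% to 0.771% (log2 0.17, 0.137 to 0.211), the highest ratio of the 61 sense codons, and Ile (AUU) from 1.66% to 1.79% (log2 0.11, 0.084 to 0.132). Ile (AUC), by far the most frequent of the 3, was at 4.75% in WT and 4.74% in KO, and its interval included 0 (-0.017 to 0.012). AUA was higher in KO with intervals apart at 22 of 33 positions and lower at 1, against 40.9% and 24.9% of all sense codon positions. For AUC the counts were 7 higher and 13 lower, so its flat mean held positions of both signs. The widest of these was at position -3, where AUC went from 6.36% in WT to 6.94% in KO, the widest gap in percentage points with KO above WT of any member at any position. Of all Ile codon positions 49 of 99 (49.5%) were higher in KO and 17 (17.2%) were lower, beside the same 40.9% and 24.9%.

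Thr codons split by the base in the third position. Thr (ACC) went from 4.09% to 3.84% (log2 -0.091, -0.107 to -0.075). It was lower with intervals apart at 25 of 33 positions, where 24.9% of all sense codon positions were lower. Thr (ACA) went from 2.40% to 2.50% (log2 0.060, 0.039 to 0.080) and Thr (ACU) from 2.47% to 2.51% (log2 0.026, 0.006 to 0.046). The rare Thr (ACG) went from 0.321% to 0.338% (log2 0.072, 0.017 to 0.128). Summed over its 4 codons Thr hardly moved, with 9.28% in WT and 9.20% in KO (log2 -0.014, -0.024 to -0.0034). The next 2 widest gaps of that direction were both in Thr: ACU at position -6 went from 3.41% to 3.94% and ACA at position -13 from 2.64% to 3.16%.

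Ala codons were counted mainly outside the stretch without G. Their mean share was 3.52% in WT and 3.60% in KO (log2 0.031, 0.015 to 0.048). Ala (GCA) went from 0.783% to 0.848% (log2 0.12, 0.081 to 0.150), rank 3 from the top of the 61 sense codons. It was higher with intervals apart at 20 of 33 positions, where 40.9% of all sense codon positions were higher. Ala (GCU) went from 1.08% to 1.12% (log2 0.045, 0.015 to 0.074). Ala (GCC), at 1.46% and 1.44%, and Ala (GCG), at 0.195% and 0.196%, had intervals that included 0. The Ala share changed steeply at the edge of the stretch, from 3.10% at position -17 to 0.424% at -14 in WT and from 3.34% to 0.574% in KO.

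Over positions -30 to 2 no single Val codon had a log2 ratio beyond 0.061 in size, the smallest such limit of the 5 amino acids. Summed over its codons, Thr was smaller in size (-0.014). Over -14 to 0 the summed Val ratio was the largest of the 5, at 0.34. The Val share was 2.93% in WT and 2.97% in KO (log2 0.019, 0.0007 to 0.037). Over -30 to -18 the sign turned, with 4.97% in WT and 4.96% in KO (log2 -0.0034, -0.019 to 0.012). Val (GUA) went from 0.373% to 0.389% (log2 0.061, 0.011 to 0.111). Val (GUU), Val (GUC) and Val (GUG) had log2 ratios of 0.014, 0.0031 and 0.022, and all 3 intervals included 0. Val changed likewise between positions -17 and -14, from 2.83% to 0.305% in WT and from 3.29% to 0.414% in KO.

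Position 1 is where Ala and Val codons dominate, since their G is then the base just before the read. Ala took 31.4% of all codons there in WT and 30.4% in KO, and Val took 23.6% and 23.3%. Their U-, C- and A-ending codons together took 55.0% in WT (54.8 to 55.1) and 53.7% in KO (53.5 to 53.8). In the coding sequences the same 6 codons head 57.5% of the G-led stretches that begin on a codon's first base. Ala (GCC) held 16.5% at position 1 in WT and 15.3% in KO, the widest gap in percentage points with KO below WT of any member. Ala (GCU) held 8.01% and 8.28%, Ala (GCA) 6.85% and 6.81%, Val (GUC) 14.5% and 14.0%, Val (GUU) 5.68% and 5.75%, and Val (GUA) 3.39% and 3.53%. The C-ending codon was thus the one furthest below its WT share in both boxes. Ala (GCG) was at 0.024% and 0.034% and Val (GUG) at 0.033% and 0.063%, since the third base would put a G at the second base of the read.

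Counted across the 19 codons, changes over 0.1 on the log2 scale were few. Above 0.1 were 3 of 19 (Ala GCA, Ile AUU and Ile AUA), against 5 of 61 sense codons (8.20%), and below -0.1 was 1 of 19 (CCC), against 2 of 61 (3.28%). The median log2 ratio was 0.014 for the 19 codons and 0.027 for all sense codons. The ratio was positive for 12 codons and negative for 7, against 44 and 17 of the 61 sense codons. The interval lay above 0 for 8 and below 0 for 4, against 32 and 9 of the 61. By position, 236 of 627 (37.6%) were higher in KO with intervals apart, against 40.9% of all sense codon positions, and 187 (29.8%) were lower, against 24.9%. Both shares are near those of the whole table. In 9 of 19 codons the 3 separate sets of reads gave the same sign: Ala (GCA), Ile (AUU), Ile (AUA), Thr (ACA) and Val (GUA) were higher in each, and Pro (CCU), Pro (CCC), Pro (CCA) and Thr (ACC) were lower in each. The sets share the same mice and are not replicates. The same count over the 61 sense codons is not given here, so 9 of 19 cannot be called particular to these codons.

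Sorted by the third base, the C-ending codons stood below the rest. The C-ending codons summed to 14.9% in WT and 14.3% in KO (log2 -0.059, -0.068 to -0.051), and the sum was lower in KO at 31 of 33 positions. The U-ending codons were at 9.91% and 9.89% and the A-ending codons at 8.08% and 8.14%, with intervals that included 0 in both. The G-ending codons were at 1.79% and 1.81% (log2 0.018, -0.0057 to 0.042). Over positions -30 to 2 the C-ending codon had the lowest log2 ratio of its box in 5 of 5 amino acids, and over -30 to 0 in 3 of 5 (Ile, Pro and Thr). The difference in log2 ratio between the U-ending and the C-ending codon, both read by the same inosine tRNA, was 0.12 in Thr (0.092 to 0.143), 0.11 in Ile (0.082 to 0.139), 0.067 in Ala (0.027 to 0.106) and 0.053 in Pro (0.030 to 0.076). In Val it was 0.011 (-0.039 to 0.061). The difference between the A-ending and the C-ending codon was 0.18 in Ile, 0.15 in Thr, 0.14 in Ala, 0.054 in Pro and 0.058 in Val, where the interval included 0 (-0.00078 to 0.116).

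The order of U- and C-ending codons was the same in Ile, Pro and Thr in the 8 windows of positions examined, and it varied in Ala and Val. The U-minus-C difference was positive in 8 of 8 windows in Ile (0.067 to 0.14), Pro (0.036 to 0.072) and Thr (0.055 to 0.17). In Pro the interval for the in-frame positions -30 to 0 included 0 (-0.0002 to 0.077). The difference was positive in 6 of 8 in Ala (-0.12 to 0.15) and in 4 of 8 in Val (-0.23 to 0.094). The windows overlap and count many of the same reads, so 8 of 8 does not stand for 8 separate results. The A-minus-C difference was positive in 8 of 8 windows in Ile, Pro and Thr and in 6 of 8 in Ala and Val. It turned negative in Ala over -20 to 0 (-0.029) and -14 to 0 (-0.14), and in Val over -20 to 0 (-0.054) and in the in-frame positions -30 to 0 (-0.015). Position by position, the KO to WT ratio was higher for the U-ending than for the C-ending codon at 27 of 33 positions in Ile, 25 in Thr, 23 in Pro, 18 in Ala and 14 in Val.

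Expressed as shares within an amino acid, which removes any change in the amino acid itself, the same codons stood out. The AUC share of Ile codons went from 66.9% in WT to 64.9% in KO, while AUU went from 23.4% to 24.5% and AUA from 9.66% to 10.6%. The ACC share of Thr codons went from 44.0% to 41.7%, while ACA went from 25.9% to 27.2% and ACU from 26.7% to 27.4%. In Ala, GCC went from 42.0% to 40.4% and GCA from 22.2% to 23.5%, and in Pro, CCC went from 30.2% to 29.4%. The widened intervals lay apart for all of these. They overlapped for GCU and GCG, for CCU, CCA and CCG, and for all 4 Val codons, of which GUC was at 37.2% and 36.7%. For GCC the result depended on the window. Its intervals overlapped over -30 to 0 (37.1% in WT, 36.2% in KO) and over -20 to 0 (36.9%, 37.5%). Over -30 to -18 they lay apart (36.3%, 35.3%).

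For scale, AUC makes up 47.8% of Ile codons in the coding sequences, without weighting by expression, and 51.3% of the Ile codons inside G-free stretches. ACC makes up 33.7% of Thr codons and 42.4% of those inside such stretches, and CCC 29.4% and 33.4% of Pro codons. The footprints of both genotypes held more AUC than the unweighted coding sequences. The Pro codons make up 6.10% of all codons in the coding sequences and 12.4% of those inside the stretches. For Ile these figures are 4.44% and 11.8%, and for Thr 5.46% and 11.8%.

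The same order of C-ending below U-ending codons was present in boxes that are not part of the 19 codons. Leu (CUN), Ser (UCN) and Arg (CGN) are also served by A-starting anticodons, with 6, 7 and 6 genes listed. Their U-minus-C differences were 0.088 (0.061 to 0.114), 0.089 (0.067 to 0.111) and 0.085 (0.0027 to 0.167). The difference was positive in 8 of 8 windows in Leu and Ser and in 7 of 8 in Arg. In Arg it was -0.053 (-0.20 to 0.094) for reads starting on the second codon base. Gly, whose C-ending codon is read by a tRNA starting with G (14 GCC genes, 1 ACC gene), had 0.032 (-0.020 to 0.084), but this value depended on the window, with 0.072 (0.011 to 0.133) over -30 to 0, 0.11 (0.063 to 0.150) over -30 to -18 and -0.32 over -14 to 0. Its A-minus-C difference was 0.11 over -30 to 2. Over -30 to 2 the C-ending codon was the lowest of its 4 codons in Leu, Ser and Arg, and in Gly the G-ending codon was lower still, with a G-minus-C difference of -0.033 (-0.087 to 0.020). Whether boxes read by inosine differ from others was not tested, since there is 1 table per genotype.

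Among codons without G, the number of C bases moved with these ratios, in the 9 members and the 17 others. Those with no C had a median log2 ratio of 0.14 in the members (AUU and AUA) and 0.091 in the 5 others. With 1 C the medians were 0.026 in 3 members and 0.027 in 9 others, and with 2 C they were -0.084 in 3 members and -0.083 in 3 others. The codon with 3 C is CCC, at -0.14. The 10 members with G did not follow this order, with medians of 0.022 for 0 C, 0.045 for 1 C and -0.031 for 2 C, and of 0.35, 0.36 and 0.33 over positions -14 to 0. C made up 44.2% of the first 17 read bases in WT and 42.7% in KO, and 30.9% and 30.2% of bases 19 to 30. A change in the codons and a change in the base composition of the fragments cannot be told apart in these tables.

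The distance from the 5′ end of the read changed the size of the ratios. Over -30 to -18, beyond the first 17 bases, Pro was at 8.75% in WT and 8.31% in KO (log2 -0.074), Ile at 5.04% and 5.10% (log2 0.018) and Ala at 5.78% and 5.92% (log2 0.035). AUA stood at 0.655% and 0.715% (log2 0.13) and GCA at 1.31% and 1.46% (log2 0.15). Over -14 to 0, Pro was at 15.6% and 14.5% (log2 -0.11) and Ile at 9.56% and 9.93% (log2 0.055). In that window the WT shares of the 9 codons without G exceeded those beyond it by 1.19 times (AUA) to 2.40 times (AUC). The 10 codons with G did the reverse, and their WT shares beyond were 13.0 times (GCG) to 23.2 times (GUU) those inside.

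Inside the first 17 bases, the rare codons with G were higher in KO. Ala went from 0.326% to 0.402% (log2 0.30, 0.249 to 0.356) on 21912 and 40991 counts, and Val from 0.240% to 0.305% (log2 0.34, 0.281 to 0.405) on 16218 and 31288 counts. The 4 G-ending codons together went from 0.213% to 0.263% (log2 0.30, 0.237 to 0.370). Of the 10 members with G, 9 had a positive ratio in this window, and their median was 0.35. Of the 25 other sense codons with G, 23 were positive, with a median of 0.28. The share of G among these 17 bases itself had a log2 ratio of 0.31 and its part in these ratios was not tested.

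Positions -17, -14 and -11 were taken as the A, P and E sites, where the ribosome binds tRNAs, and were compared with their neighbours. This assumes that the 5′ end of a read marks the ribosome, which was not tested. Read starts followed G in 86.3% of counts in WT and 86.5% in KO. They were spread over the bases of a codon, in order, with 33.5%, 39.4% and 27.2% in WT and 33.7%, 39.6% and 26.7% in KO. The differences are therefore no measure of how often these sites were occupied. The log2 ratio at positions -17, -14 and -11 minus that at the other positions in the same frame between -20 and 0 was -0.026 for Pro, 0.0033 for Ile and 0.013 for Thr. For the 9 members without G the median of this difference was 0.014 (-0.096 to 0.051), and for the other codons without G it was -0.036 (-0.090 to 0.058). The ranges of the members and of the others overlapped nearly throughout. For Ala and Val, whose counts collapse between -17 and -14, it was 0.093 and 0.25. For the 10 members with G the median was 0.12 (-0.28 to 0.93), and for the 25 others with G it was 0.0047 (-0.91 to 1.03). With the site positions shifted, the order turned for codons without G, with medians of -0.025 in the members and 0.017 in the others. With G the shifted medians were 0.25 and 0.081.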

How the data were processed

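Ribosome footprints were sequenced from the brains of 3 WT and 3 tRNA-Phe-1-1-/- mice. Per the labels and the study's methods, the authors trimmed the reads with cutadapt and Trim Galore, removed non-coding RNA with Bowtie2 (2.4.5), aligned to GRCm39 with STAR allowing at most 3 alignments, and used fivepseq to count where reads begin relative to each codon. The deposited values are raw counts per codon and position, with the 3 mice of a genotype summed. Counts of single mice were not analysed here. Stop codons stayed in the denominator.

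Counts were divided by the total of all codons at each position and summed or averaged over positions with Python 3.11.15, numpy 2.4.6, scipy 1.17.1 and pandas 2.3.3. Depth was 363910 to 539833 counts per position in WT and 536238 to 812424 in KO. Intervals at 1 position are 95% Wilson intervals. Over several positions, log2 ratios of summed shares carry normal 95% intervals with a widened standard error. It was multiplied by the square root of the most positions of the window at which 1 read is counted. That number was 11 for -30 to 2, -30 to 0 and the single frames. It was 7 for -20 to 0 and 5 for -30 to -18 and -14 to 0. On simulated data (64 codons, 20 simulations), these intervals held 100% of the true ratios, above the nominal 95%. The widened intervals were thus broader than the simulated counting error required. This result cannot show whether the widening suits reads counted at several positions, and it does not cover the spread between mice. No pseudocount and no filter on low counts was used. All 19 codons were named, and other codons only where a box or class was compared. Alternatives were other windows, other denominators, single frames and the positions taken as the A, P and E sites. tRNA genes were counted by RefSeq symbol, and codon usage from GENCODE coding sequences of 21458 genes (11895516 codons). The members and lists were chosen with earlier results of these data known.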

Additional observations from a re-analysis of the deposited data

How the results depend on the processing

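No paired analysis was possible because each table is already a sum over 3 mice, and for the same reason no mouse could be left out. For the 5 amino acid log2 ratios and the 5 U-minus-C differences, 11 other settings gave 105 values, of which 59 stayed within the 95% counting interval, 41 left it and 5 left it with the opposite sign of a value whose interval excluded 0. Reads starting on the second or on the third codon base, and positions -30 to 0, were added after seeing the data. Counts as deposited, without division by the total, carry the greater depth of KO, which shifts the median of all sense codons by 0.58. On that scale Ala was 0.61, Ile 0.62, Val 0.60, and the negative ratios turned positive in Pro (0.49) and Thr (0.57), so directions are relative to the total. Shares of the 61 sense codons changed nothing beyond the interval. Over -20 to 0, Ala was 0.10 and Val 0.15, and U-minus-C was -0.042 in Ala and 0.14 in Ile. Over -30 to -18, Ile was 0.018, Pro -0.074 and Val -0.0034, and U-minus-C was 0.020 in Ala, 0.067 in Ile and 0.055 in Thr. Over -14 to 0, Ala was 0.30, Ile 0.055, Pro -0.11 and Val 0.34, and U-minus-C was 0.14 in Ala and -0.11 in Val. Over -30 to 0, Ala was 0.058 and its U-minus-C 0.022. With in-frame positions between -30 and 0, Ala was 0.058 and Thr -0.0024, and U-minus-C was -0.12 in Ala and 0.17 in Thr. Averaging the log2 ratios of single positions gave Ala 0.17 and Val 0.15, and U-minus-C of 0.013 in Pro, 0.085 in Thr and -0.090 in Val. At positions -17, -14 and -11 alone U-minus-C was 0.13 in Ala, 0.17 in Ile, 0.089 in Pro, 0.020 in Thr and 0.23 in Val. Reads starting on the second codon base gave Ala 0.011, Ile 0.025 and Pro -0.085, and U-minus-C of 0.15 in Ala, 0.068 in Thr and 0.094 in Val. Reads starting on the third gave Ile 0.058, Pro -0.11 and a Val U-minus-C of -0.23. The cause of these moves was not tested. Depth limits the codons with G inside the first 17 bases, each below 0.2% of counts there.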
